A study of Mus musculus with 12 samples.

Results

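The resolution phase of the response to Ifn-β was described here by setting the 2 arrays of macrophages harvested 8 h after treatment against the 2 arrays harvested at 4 h, across every transcript cluster of the array that carries exactly 1 gene symbol. These are 4 of the 12 arrays and 14996 of the 23332 transcript clusters. The cells were bone marrow derived macrophages from male Balb-C mice aged 8 to 9 weeks, grown from femurs in medium with CSF1, the growth factor that drives bone marrow cells to become macrophages, and treated on day 7 with 10 U/ml recombinant mouse Ifn-β. Every time of the series (0, 1, 2, 4, 8 and 24 h) has 2 arrays, and the cells of each time but 0 h received the interferon. The RNA of the arrays of a time came from separate wells, and whether the wells came from 1 or several marrow preparations was not given, so the p-values measure the spread between wells. No untreated culture was harvested at 4 h or 8 h, so the passage of time in culture and the interferon cannot be told apart. The strain, sex and CSF1 were common to all arrays.

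Ifn-β binds its receptor, activates the kinases Jak1 and Tyk2, and a complex of transcription factors that includes Irf9 then binds interferon-stimulated response elements (ISREs) in front of its target genes. The burst of transcription is closed by inhibitors such as Socs1 and Usp18, by loss of receptor from the surface and by decay of the messengers, so the level of an induced gene at a late time reflects both how long it is transcribed and how long its messenger lasts. In macrophages the products include chemokines, antiviral effectors, guanylate-binding proteins and the machinery of antigen presentation.

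Promoters of 5 induced genes are shown because each holds the ISRE core (GAAA, any 2 bases, then GAAA again, on either strand, and so TTTC in both places where it lies on the other strand) and yet the genes differed in what happened after 4 h. The 3 genes shown first were lower at 8 h than at 4 h, and for the last pair the 95% interval of 8 h minus 4 h lay within 1.5-fold either way. They were picked after their values were seen. Each sequence is the 250 bases before the start of the gene in RefSeq (build GRCm38.p6), read along the gene 5′ to 3′, with the ISRE core in capitals. The stretches are chr5:92348890-92349139 (minus strand) for Cxcl10, chr19:34640639-34640888 (plus strand) for Ifit1, chr3:142496684-142496933 (plus strand) for Gbp5, chr3:142620413-142620662 (plus strand) for Gbp2 and chr9:7272264-7272513 (plus strand) for Mmp13.
Cxcl10: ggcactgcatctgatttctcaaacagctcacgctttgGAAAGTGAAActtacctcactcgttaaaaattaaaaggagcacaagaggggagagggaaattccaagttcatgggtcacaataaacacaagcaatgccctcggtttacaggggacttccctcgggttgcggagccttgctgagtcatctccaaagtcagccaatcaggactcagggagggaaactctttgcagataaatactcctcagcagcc
Ifit1: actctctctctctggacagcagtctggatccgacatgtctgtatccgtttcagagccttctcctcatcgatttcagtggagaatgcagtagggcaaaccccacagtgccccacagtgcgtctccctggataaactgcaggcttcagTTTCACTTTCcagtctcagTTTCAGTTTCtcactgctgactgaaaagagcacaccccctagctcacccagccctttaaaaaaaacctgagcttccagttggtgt
Gbp5: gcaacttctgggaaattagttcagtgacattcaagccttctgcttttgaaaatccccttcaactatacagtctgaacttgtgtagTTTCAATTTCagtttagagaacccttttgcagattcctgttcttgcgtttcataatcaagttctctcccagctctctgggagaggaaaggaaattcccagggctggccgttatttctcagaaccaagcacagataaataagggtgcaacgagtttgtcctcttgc
Gbp2: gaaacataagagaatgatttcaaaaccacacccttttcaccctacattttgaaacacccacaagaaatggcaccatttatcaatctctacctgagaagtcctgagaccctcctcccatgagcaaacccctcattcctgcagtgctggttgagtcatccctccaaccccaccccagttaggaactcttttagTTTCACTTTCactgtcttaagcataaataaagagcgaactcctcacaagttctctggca
Mmp13: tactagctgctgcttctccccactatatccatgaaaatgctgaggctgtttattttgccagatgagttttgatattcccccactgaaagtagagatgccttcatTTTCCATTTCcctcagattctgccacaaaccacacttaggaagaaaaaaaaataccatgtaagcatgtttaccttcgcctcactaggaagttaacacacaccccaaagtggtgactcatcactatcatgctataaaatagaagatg

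The core begins 213 bases before the start in Cxcl10, 165 in Gbp5, 146 in Mmp13 and 59 in Gbp2. In Ifit1 it is present at 2 places, 104 and 85 bases before the start.

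From 4 h to 8 h, 321 transcript clusters fell (2.14% of 14996) and 326 rose (2.17%). The calls needed a change of 1.5-fold or more and p under 0.05 after Benjamini-Hochberg adjustment in limma, and in every called cluster the 8 h arrays and the 4 h arrays did not overlap. Called or not, the arrays of the 2 times lay apart in 2940 of the 14996 clusters with 8 h lower and in 5018 with 8 h higher. A cluster is said to have held where it was not called and the 95% interval of the difference lay wholly within 1.5-fold either way. The falls were the larger changes: their median was -1.02 on the log2 scale, 52 were at least 1.5 and 5 at least 3, while the median rise was 0.84, 11 rises were at least 1.5 and none reached 3. Leaving out array 15 or 16 of 4 h, or 18 or 23 of 8 h, left 154, 154, 141 and 149 clusters called lower and 72, 78, 70 and 58 called higher, and leaving out either 1 h array left 209 called higher. Under cyclic loess, another scaling between arrays, the split was 492 lower and 282 higher, so that 36.4% of the calls were higher against 50.4%. The median change over all 14996 clusters was 0.035, and among the more highly expressed clusters it was 0.09 (those between the median and the upper quartile by level) and 0.085 (those above).

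The arrays of a time were alike. The correlation across clusters was 0.989 between the 4 h arrays and 0.988 between the 8 h arrays, and the median standard error of the 8 h minus 4 h difference was 0.146. The 7 measured macrophage markers had a mean RMA level of 11.1 at both times, none was called, and 6 of them held. Markers of 7 other cell types (T, B and NK cells, neutrophils, dendritic cells, erythroid cells and fibroblasts) had list means between 4.11 and 5.84, near or under the median of an array (5.84 to 5.90), though probes of different genes are not on one scale. Of these 35 markers none was called in limma at 8 h against 4 h and 29 held. Over all clusters 2.14% were called lower and 2.17% higher, and 62.5% held. In bulk RNA fewer cells of a type and less RNA per cell cannot be told apart.

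Of the 321 falls 297 were in clusters called higher at 4 h than at 0 h, termed induced here, and the clusters called lower are termed lowered. Of the 636 clusters called higher at 4 h than at 0 h (4.24% of all), 297 fell by 8 h (46.7%, against 2.14% of all clusters), 133 held (20.9%), 205 neither fell nor held and 1 rose further. Over all clusters 62.5% held. The 4 h arrays serve in both comparisons, so a chance excess at 4 h raises both counts, and these figures describe the induced genes without testing them. Over the 636, the median share of the log2 rise that was left at 8 h was 44.8%, and 199 clusters kept less than 25%. Leaving out array 15, 16, 18 or 23 gave 148, 149, 139 or 145 falls, and leaving out array 15, 16 or 23 gave 66, 64 or 86 that held.

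The same question was put to genes chosen on arrays that enter neither side of the comparison. The fit of all 12 arrays gave each cluster the same estimate of the spread for every call. The choice was therefore not independent of the calls of 8 h against 4 h. Of the 301 clusters called higher at 2 h than at 0 h (2.01%), 164 fell from 4 h to 8 h (54.5%), none rose and 64 held, with a median change of -0.74. Of the 86 called higher already at 1 h (0.573%), 58 fell (67.4%), none rose and 16 held, with a median change of -0.92. Of the 52 clusters that fell by at least 1.5 on the log2 scale 40.4% were called higher at 1 h, against 13.7% of the 117 that fell by 1 to 1.5 and 13.8% of the 152 that fell by less. For 2 h the shares were 82.7%, 47.9% and 42.8%. The median rise at 4 h also differed, at 2.50 on the log2 scale among the largest falls and 0.96 among the smallest, and its part in the early calls was not tested. These shares are descriptions with no test. The 2 h arrays differed: the median of the 297 induced clusters that fell, relative to the 0 h mean, was 0.95 on array 10 and 0.65 on array 12. Leaving out array 4, 15, 16, 18 or 23 left 105, 93, 90, 86 or 88 falls among the clusters higher at 2 h.

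**Figure D1:**
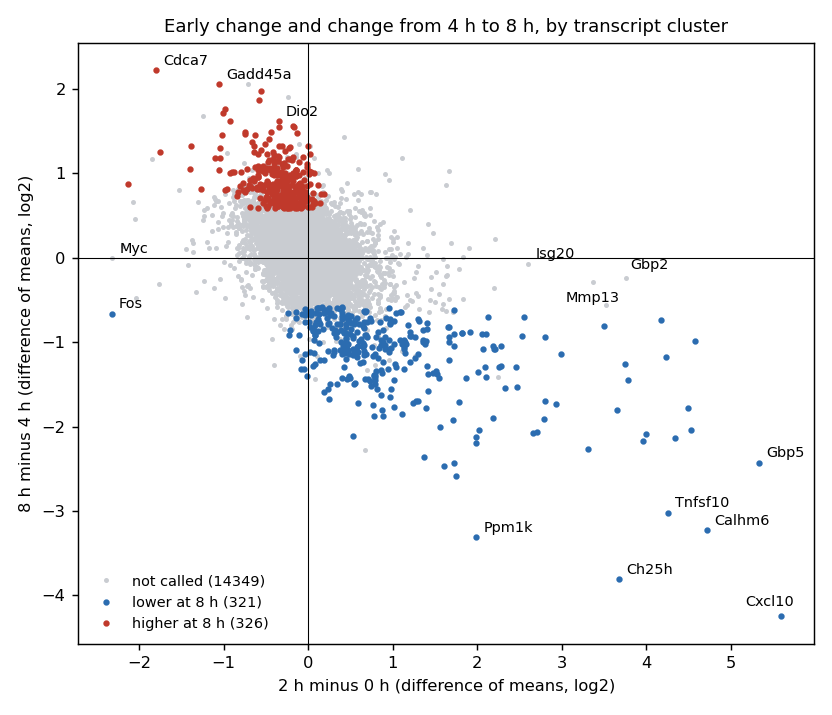
Each point is 1 of the 14996 transcript clusters, with the 2 h minus 0 h difference of means on the x axis and the 8 h minus 4 h difference of means on the y axis, both in log2; no array enters both axes. The 321 clusters called lower at 8 h (blue) lie mostly to the right of 0, with Cxcl10 at the far lower right, the 326 called higher (red) lie mostly to its left, and Gbp2, Isg20 and Mmp13 lie right of 0 near the horizontal line.

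Cxcl10, a chemokine that draws T cells through Cxcr3, fell the furthest. Its RMA level, a log2 value, was 7.47 and 6.88 at 0 h, then 13.13 and 13.12 at 4 h, then 8.85 and 8.90 at 8 h. The 8 h arrays lay far under the 4 h arrays and still above the 0 h arrays. The fall was -4.25 ± 0.18 on the log2 scale (SE, n = 2 arrays per time), or 19.0-fold (adjusted p = 5.59e-05 in limma), and 28.6% of the log2 rise was left. By 24 h the mean level was 6.52.

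Ch25h makes an oxysterol with antiviral action. It stood at 6.51 and 6.05 before treatment, 9.77 and 9.58 at 4 h, and 6.18 and 5.55 at 8 h, so the 8 h and 0 h arrays overlapped. The fall was -3.81 ± 0.23 on the log2 scale (adjusted p = 0.000287 in limma). Its rise was early, with a mean of 9.70 at 1 h and 9.96 at 2 h.

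Ppm1k encodes a mitochondrial phosphatase that acts on branched-chain keto acid dehydrogenase. Its levels were 7.27 and 6.87 at 0 h, then 10.36 and 10.11 at 4 h, then 6.95 and 6.90 at 8 h, a fall of -3.31 ± 0.18 (9.92-fold) back into the range of the untreated arrays. Calhm6, of the calcium homeostasis modulator family, went from 5.79 and 5.92 through 11.31 and 11.30 to 8.07 and 8.09, a fall of -3.23 ± 0.11 (9.35-fold) that left it above 0 h. For Tnfsf10, the death ligand also called Trail, the arrays read 5.34 and 4.74, then 10.91 and 10.94, then 7.87 and 7.94, a fall of -3.02 ± 0.21 (8.11-fold). These were the 5 falls of at least 3 on the log2 scale, and 3 of these genes (Cxcl10, Calhm6 and Tnfsf10) were still called higher at 8 h than at 0 h.

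The next largest falls were in genes of varied function. Nod1, a cytosolic sensor of bacterial cell wall, fell by 2.58 on the log2 scale, Tmem67, a protein of the ciliary transition zone, by 2.46 and Sectm1a by 2.44. Il15 and Il15ra, the cytokine and the receptor chain that presents it, fell together. Il15 read 10.48 and 10.39 at 4 h, then 8.23 and 8.40 at 8 h, and Il15ra read 8.19 on both arrays at 4 h, then 6.12 and 5.88 at 8 h. The rise of Il15ra was gone, with -2.6% of it left, and 16.2% of the rise of Il15 was left. Katna1, the catalytic subunit of the microtubule-severing katanin, was at 10.61 and 10.57 at 4 h and at 8.47 and 8.49 at 8 h, inside its 0 h range of 8.29 to 8.49. Ccrl2, Enpp4 and the ubiquitin protease Zup1 fell by 2.08, 2.06 and 2.04. All 20 of the largest falls were called under each of the other settings and with any 1 array left out.

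**Figure D2:**
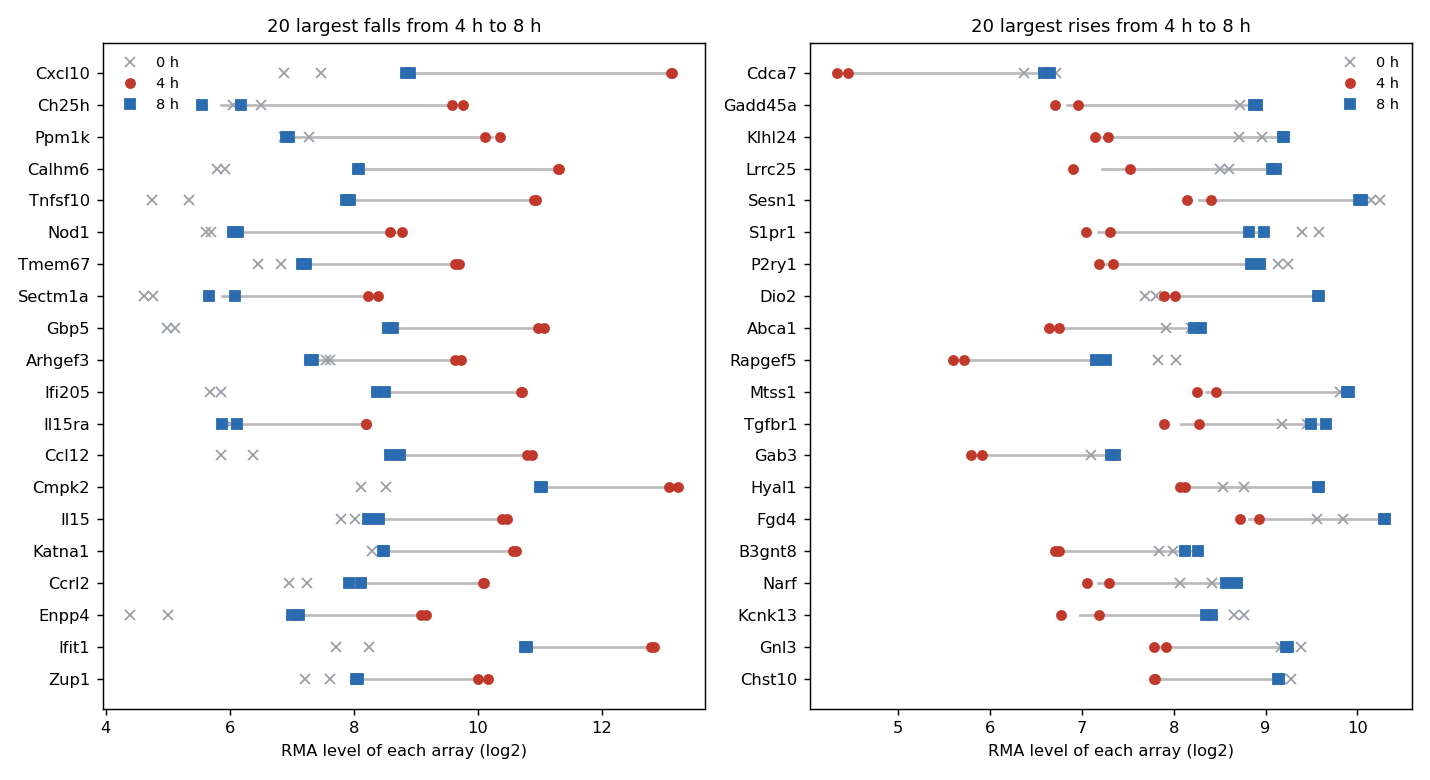
RMA level (log2, x axis) of each array at 0 h (crosses), 4 h (red circles) and 8 h (blue squares) for the 20 genes that fell most (left) and the 20 that rose most (right) from 4 h to 8 h; the grey line joins the 4 h and 8 h means. The 8 h arrays of Cxcl10 lie at 8.85 and 8.90 against 13.13 and 13.12 at 4 h, and in both panels the circles and squares of a gene do not overlap.

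Of the 297 induced clusters that fell, 77 were still called higher at 8 h than at 0 h (270 of all clusters were, 1.8%), 68 had a mean at or under that of 0 h, and none was called lower than 0 h (93 of all clusters were, 0.62%). At 24 h, 32 of them were called higher than 0 h (114 of all, 0.76%). The median of the 297, taken as each array's level minus the 0 h mean, was 1.40 and 1.45 on the 4 h arrays, 0.27 and 0.29 on the 8 h arrays and 0.15 and 0.08 on the 24 h arrays. Genes back at or under their 0 h mean included Fas, a death receptor (5.80 and 5.64 at 0 h, then 6.96 and 7.01 at 4 h, then 5.36 and 5.30 at 8 h), and Tnf, the inflammatory cytokine (9.85 and 9.80, then 10.63 and 10.71, then 9.46 and 9.61). In both genes the 8 h arrays lay under the 0 h arrays, but neither was called lower than 0 h in limma.

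**Figure D3:**
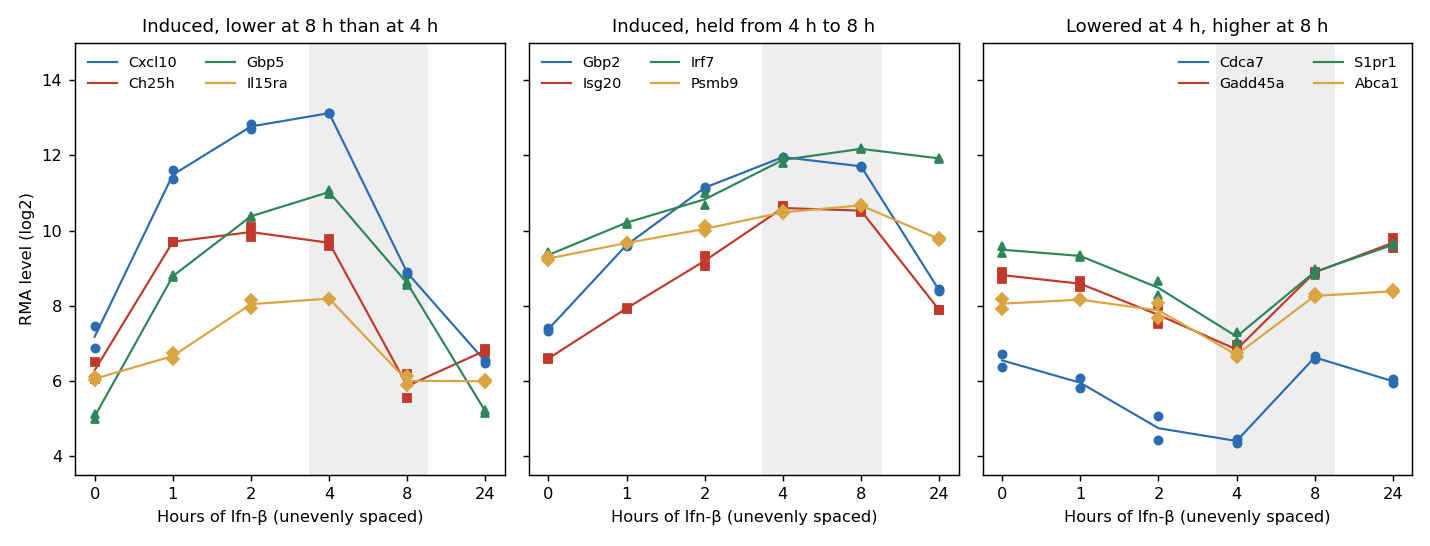
RMA level (log2, y axis) of each array (points) and the mean of a time (lines) against hours of Ifn-β, drawn at even steps, for 4 genes that were induced and fell, 4 that were induced and held, and 4 that were lowered at 4 h and rose by 8 h; the grey band marks 4 h and 8 h. Cxcl10 drops from 13.13 and 13.12 to 8.85 and 8.90 inside the band, Gbp2 stays near 11.9 and 11.7, and Cdca7 climbs from 4.46 and 4.34 to 6.66 and 6.59.

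Among induced genes that held, Gbp2, a guanylate-binding protein that acts on intracellular pathogens, had the largest rise at 4 h. It read 7.41 and 7.34 at 0 h, then 11.94 and 11.97 at 4 h, then 11.73 and 11.69 at 8 h, and 94.7% of the log2 rise was left. The difference was -0.25 with a 95% interval from -0.45 to -0.04. Gbp5, of the same family and on the same chromosome, read 5.11 and 4.99, then 10.98 and 11.07, then 8.64 and 8.55, a fall of -2.43 with an interval from -2.65 to -2.21. The intervals of the pair do not overlap, although Gbp2 and Gbp5 had risen by 4.58 and 5.98 on the log2 scale at 4 h and both carry an ISRE core in the promoters shown above.

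Isg20, an exonuclease that degrades viral RNA, read 10.55 and 10.65 at 4 h, then 10.49 and 10.57 at 8 h (interval -0.33 to 0.19). Mmp13, a collagenase, read 11.89 and 11.80 and then 11.56 and 11.55 (interval -0.58 to -0.0002). Zbp1, a sensor of Z-form nucleic acid, read 10.87 and 10.91 and then 10.97 and 11.04 (interval -0.11 to 0.34). The arrays of the 2 times overlapped for Isg20, while both 8 h arrays lay lower for Mmp13 and higher for Zbp1. The other large rises that held were those of Rnf213, Slamf8, Irf7, the complement factor Cfb and the Fc receptors Fcgr1 and Fcgr4, all still called higher than 0 h at 8 h. Irf7, the factor that sustains transcription of the interferon genes, was at 9.28 and 9.42, then 11.81 and 11.95, then 12.16 and 12.19, and its mean at 24 h was 11.92. Of the 133 clusters that held, 90 were called higher than 0 h at 8 h and 24 at 24 h, beside 1.8% and 0.76% of all clusters. Their median rise at 4 h was 0.84 on the log2 scale, against 1.42 among the 297 that fell.

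Antiviral effectors fell in part and none rose. Of 16 measured, 9 fell and 5 held, with a median change of -0.90 beside 0.035 over all clusters. Of the 15 called higher at 4 h 9 fell, beside 46.7% of the 636 induced clusters. The median of the 15 left 72.9% of the log2 rise at 8 h, beside 44.8% over all 636. The median rise at 4 h of the 16 was 3.53 on the log2 scale, beside 1.09 over the 636. The part of this in the count of falls was not tested. Rsad2, which makes an antiviral ribonucleotide, read 13.55 and 13.66 at 4 h, then 11.89 and 11.77 at 8 h (-1.78 ± 0.18, adjusted p = 0.002 in limma). Cmpk2, its neighbouring partner gene, fell by 2.14 on the log2 scale and Ifit1, which binds foreign RNA caps, by 2.04. The dynamin-like Mx1 and Mx2 fell by 0.99 and 1.18, and Oasl1 by 1.15, while Oasl2 held at 11.17 and 11.16 against 11.08 and 11.12. Samhd1, which empties the cell of deoxynucleotides, and Oas2 held too. Bst2, the tether of budding virus, was not called and read 10.90 and 11.11 at 4 h, then 11.36 and 11.47 at 8 h. Of the 16 genes 15 were called higher than 0 h at 8 h and 13 at 24 h, beside 1.8% and 0.76% of all clusters. The calls of Apobec3 and Ifit2 were lost without array 15, 16, 18 or 23 (adjusted p up to 0.0981 and 0.0886), and that of Mx1 without array 16 or 23 (0.0541).

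All 7 interferon-inducible GTPases measured were called higher at 4 h, and 5 of them fell by 8 h, beside 46.7% of the 636 induced clusters. The median of the 7 left 74.9% of the log2 rise at 8 h, beside 44.8% over all 636. Their median rise at 4 h was 4.58, beside 1.09 over the 636, and its part in the count of falls was not tested. Tgtp1 fell the most after Gbp5, from 9.44 and 9.39 to 7.48 and 7.56 (-1.90 ± 0.15), and a further cluster of that gene gave -2.09. Gbp7 fell by 1.26, Gbp3 by 0.74 and Irgm1, which controls autophagy around pathogens, by 0.70. Gvin1 was not called (10.02 and 10.08, then 9.49 and 9.40). These families share sequence between members, so signal may be shared between their probes. Gbp3 was not called without array 15, 16, 18 or 23 (adjusted p up to 0.149), nor Irgm1 without array 15, 18 or 23 (up to 0.0722).

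Chemokines divided by gene. Of 17 measured, 6 fell and none rose, beside 2.14% and 2.17% of all clusters. All 6 were among the 9 called higher at 4 h, and 46.7% of the 636 induced clusters fell. The median of the 9 left 50.2% of the log2 rise at 8 h, beside 44.8% over all 636. Beside Cxcl10, the monocyte attractants Ccl12, Ccl7 and Ccl2 fell by 2.16, 1.24 and 1.06, Ccl4 fell by 1.35 and Cxcl11, another Cxcr3 ligand, by 1.91. Cxcl11 read 8.55 and 8.62 at 4 h, then 6.60 and 6.75 at 8 h. Ccl5 and Ccl8 were not called, with arrays that overlapped: Ccl5 read 8.52 and 8.29 at 4 h, then 8.27 and 8.51 at 8 h. The interval for Ccl5, from -0.72 to 0.69, was too wide for it to count as held. Without array 15, 16, 18 or 23 the call of Cxcl11 was lost (adjusted p up to 0.123), without array 16, 18 or 23 that of Ccl7 (0.0911) and without array 16 that of Ccl2 (0.0509).

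Of 21 cytokines and soluble regulators 7 fell and none rose, beside 2.14% and 2.17% of all clusters. Besides Tnfsf10, Il15, Il15ra and Tnf these were Il10, the anti-inflammatory cytokine (6.78 and 6.96 at 4 h, then 4.94 and 4.79 at 8 h), Csf1, the macrophage growth factor (8.47 and 8.67, then 7.00 and 6.98), and Il27 (7.57 and 8.05, then 6.54 and 6.57). Of the 10 members called higher at 4 h 7 fell, beside 46.7% of the 636 induced clusters, and Il1rn, the antagonist of Il1, was the one that held. The median of the 10 left 24.6% of the log2 rise at 8 h. Leaving out array 15, 16, 18 or 23 ended the call of Il10 (adjusted p up to 0.0789).

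Transcription factors and kinases of the pathway moved in both directions, with 4 of 19 measured lower and 2 higher, beside 2.14% and 2.17% of all clusters. Of the 7 called higher at 4 h 4 fell, beside 46.7% of the 636 induced clusters. The median of the 7 left 46.2% of the log2 rise at 8 h, beside 44.8% over all 636. Irf1, an early activator of interferon-induced genes, read 10.43 and 10.67 at 4 h, then 9.02 and 9.18 at 8 h (-1.45 ± 0.12, adjusted p = 0.000872 in limma). Jak2 fell by 1.40 (not called with the title ending as a block), Irf2 by 0.84 and Irf5 by 0.72, while Irf7 held. Stat2, a component of the complex that binds the ISRE, was not called (11.34 and 11.40, then 10.98 and 10.90). The receptor chains for interferon gamma rose: Ifngr1 went from 8.27 and 7.96 to 9.05 and 9.23 and Ifngr2 from 10.09 and 10.04 to 10.63 and 10.79. Under cyclic loess Ifngr2 was not called. The calls of Irf2 and Irf5 were lost without array 15, 16, 18 or 23 (adjusted p up to 0.0981 and 0.102), and those of Ifngr1 and Ifngr2 without any 1 of 10 arrays, the 2 h arrays being the exception (up to 0.232 and 0.21).

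Of 19 feedback inhibitors 2 fell, 3 rose and 7 held, beside 2.14%, 2.17% and 62.5% of all clusters. Socs1, which blocks the Jak kinases, went from 8.80 and 8.88 at 4 h to 7.84 and 7.99 at 8 h, into its 0 h range of 7.86 and 7.80 and just above it, and Pml, the organizer of nuclear bodies, fell by 0.93. Dusp6, a phosphatase of Erk, Tnip1, which restrains NF-κB, and Irak3, which restrains Toll-like receptor signalling, had been called lower at 4 h and rose by 0.87, 0.88 and 0.67. Of the 4 called higher at 4 h 2 fell, and all 3 called lower at 4 h rose; the 4 h arrays serve in both comparisons. Socs1 and Pml were not called with only the 4 arrays compared in the fit. Irak3 was not called with quantile normalization applied again or under cyclic loess. Without array 15, 16, 18 or 23 the calls of Dusp6, Tnip1 and Irak3 were lost (adjusted p up to 0.112, 0.166 and 0.199), that of Irak3 also without either array of 1 h or of 24 h.

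Nucleic acid sensors fell in 7 of 16 cases and none rose, beside 2.14% and 2.17% of all clusters. The RNA helicases Ifih1, Ddx58 and Dhx58 fell by 1.41, 0.90 and 0.82, Tlr3, the endosomal sensor of double-stranded RNA, by 1.08, and the pyrin and HIN family members Ifi205, Aim2 and Ifi203 by 2.27, 1.39 and 0.89. Tlr7 held (10.66 and 10.56, then 10.41 and 10.62). Of the 15 sensors called higher at 4 h, then 7 fell and 2, Zbp1 and Tlr7, held, beside 46.7% and 20.9% of the 636 induced clusters. The median of the 15 left 67.5% of the log2 rise at 8 h, beside 44.8% over all 636. At 8 h 12 of all 16 were called higher than 0 h, beside 1.8% of all clusters. Dhx58 was not called without array 15, 16, 18 or 23 (adjusted p up to 0.0835), nor Aim2 without array 15, 18 or 23 (up to 0.061), and Ddx58 and Ifi203 were not called with only the 4 arrays or with the title ending as a block.

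Genes of antigen presentation by MHC class I mostly held. Of 13 measured genes 11 held, against 62.5% of all clusters, and 1 fell. The exception was Tap1, a subunit of the peptide transporter, with 10.90 and 10.96 at 4 h, then 10.05 and 10.00 at 8 h (-0.91 ± 0.11, adjusted p = 0.00366 in limma). With only the 4 arrays compared in the fit, or with the ending of the array titles as a block, Tap1 was not called. Tap2, the other subunit, read 9.70 and 9.74 and then 9.54 and 9.49 (interval -0.45 to 0.04). The immunoproteasome subunits Psmb8, Psmb9 and Psmb10 had changes of 0.11, 0.19 and 0.10, and the peptide-loading proteins Tapbp and Tapbpl of 0.18 and 0.00. Of the 7 members called higher at 4 h 6 held, beside 20.9% of the 636 induced clusters. The median of the 7 left 106% of the log2 rise at 8 h, beside 44.8% over all 636. At 0 h the median member stood at percentile 91.6 of all genes by level, and the part of level in the held counts was not tested. Of the 6 class II genes measured none was called in either direction and 5 held. Of all clusters 2.14% were called lower and 2.17% higher, and 62.5% held.

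Genes of ISG15 and ubiquitin conjugation and the Parp family were divided, with 3 of 7 and 3 of 8 lower and none higher. All 7 of the first list and 5 of the second had been called higher at 4 h, and the falls were among these. Of all clusters 2.14% fell, and of the 636 induced clusters 46.7%. The median share of the log2 rise left at 8 h was 71.1% in the 7 and 62.4% in the 5, beside 44.8% over all 636. Trim21, a cytosolic receptor for antibody, fell by 1.54, Dtx3l by 1.08 and Rnf31 by 0.88, while Ube2l6, Trim25 and Rnf213 held. Parp8, Parp14 and Parp9 fell by 1.22, 1.05 and 1.00. Dtx3l and Parp9 work as a complex, and they went from 10.83 and 10.92 to 9.81 and 9.79 and from 10.81 and 10.78 to 9.83 and 9.77. Leaving out array 16 or 18 ended the call of Rnf31 (adjusted p up to 0.0694), and leaving out array 15 that of Parp8 (0.0512), while that of Parp9 was lost with the title ending as a block.

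Of 20 caspases, death receptors and Bcl2 family members 7 fell and 1 rose, beside 2.14% and 2.17% of all clusters. Of the 11 called higher at 4 h 7 fell, beside 46.7% of the 636 induced clusters. The median of the 11 left 46.9% of the log2 rise at 8 h, beside 44.8% over all 636. Daxx, a transcriptional corepressor, fell by 1.70 and Fas by 1.66. Casp12, Casp4, Casp2 and Casp8 fell by 1.55, 1.30, 0.93 and 0.79, and Cd40, the receptor for T cell help, by 1.08. Bcl2l11, the pro-apoptotic Bim, rose from 7.76 and 7.63 to 8.71 and 8.76. Its call, lost without array 15, 16, 18 or 23 (adjusted p up to 0.104), stood apart in direction. The calls of Casp8 and Cd40 were each lost without 3 of these arrays (up to 0.11 and 0.0611), array 16 being the exception for Casp8 and array 15 for Cd40.

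**Figure D4:**
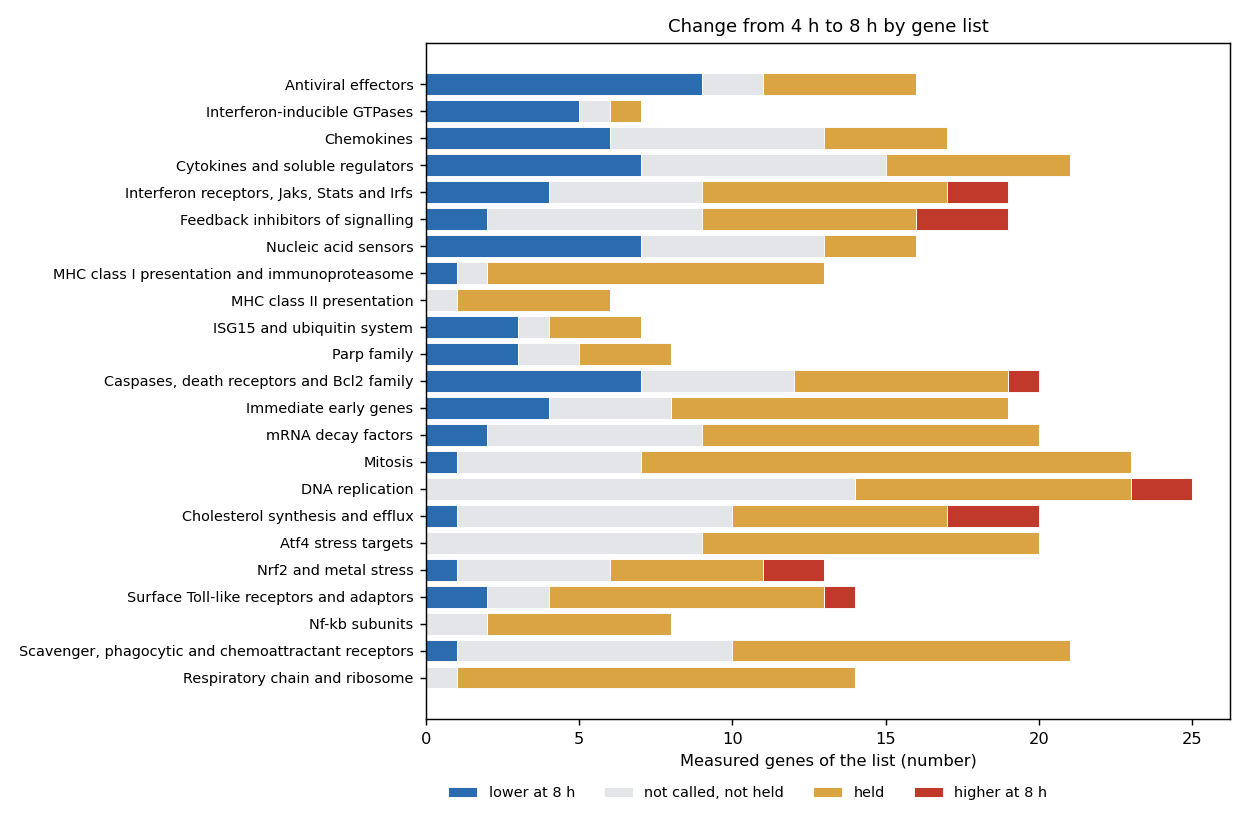
Number of measured genes (x axis) of each gene list that were lower at 8 h than at 4 h (blue), not called and not held (grey), held (gold) or higher (red). Of 16 antiviral effectors 9 were lower, and of 13 genes of MHC class I presentation 11 held.

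Genes lowered at 4 h went the other way. Of the 737 clusters called lower at 4 h than at 0 h (4.91%), 236 rose by 8 h (32%, against 2.17% of all clusters), 92 held, 409 neither rose nor held and none fell. The median share of the log2 drop left at 8 h was 33.1%. Of the 236 that rose, 1 was still called lower than 0 h at 8 h, and in 176 the 95% interval of 8 h minus 0 h lay within 1.5-fold. Of all 14996 clusters 0.62% were called lower than 0 h at 8 h, and in 9635 that interval lay within 1.5-fold. The medians of the 236 relative to the 0 h mean were -0.93 and -0.90 on the 4 h arrays and -0.05 and 0.01 on the 8 h arrays. As for the induced genes, the 4 h arrays served in both comparisons. Leaving out array 2, 4, 5, 8, 15, 16, 18 or 23 changed the 236 to 106, 151, 155, 155, 52, 62, 58 or 47.

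Chosen at 2 h, on arrays outside the comparison though with the same estimate of the spread, the lowered genes were few. Of 72 clusters called lower at 2 h than at 0 h (0.48%), 24 rose from 4 h to 8 h (33.3%), 15 held and 1, Fos, fell. This count moved with single arrays: it was 171 without array 10, 6 and 9 without arrays 2 and 4, and 8, 9, 8 and 7 without arrays 15, 16, 18 and 23. Fos, an immediate early factor, was at 8.80 and 8.89 at 4 h, then 8.17 and 8.19 at 8 h, and its call was lost with any of 8 arrays left out (adjusted p up to 0.197), those of 1 h and 2 h being the exceptions.

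Cdca7, a cell cycle gene that responds to Myc, had the largest rise. It read 6.72 and 6.37 at 0 h, then 4.46 and 4.34 at 4 h, then 6.66 and 6.59 at 8 h, so the 8 h arrays lay inside the 0 h range. The rise was 2.23 ± 0.21 on the log2 scale, or 4.68-fold (adjusted p = 0.00157 in limma). Gadd45a, induced in growth arrest and DNA damage, read 8.91 and 8.72, then 6.96 and 6.71, then 8.91 and 8.87, a rise of 2.06 ± 0.18, and its mean at 24 h was 9.68. Klhl24, an adaptor of a Cullin ligase, was at 7.29 and 7.14 at 4 h, then 9.19 and 9.20 at 8 h. Sesn1, a sestrin that restrains growth signalling, went from 8.41 and 8.14 to 10.05 and 10.02, close to its 0 h levels of 10.24 and 10.15.

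The 20 largest rises also included receptors and signalling proteins. S1pr1, a receptor for sphingosine phosphate, read 9.58 and 9.40 at 0 h, then 7.31 and 7.05 at 4 h, then 8.82 and 8.98 at 8 h, with 25.5% of the log2 drop left. P2ry1, an ADP receptor, went from 7.19 and 7.34 to 8.84 and 8.94, and Tgfbr1, a receptor chain for Tgf-β, from 8.28 and 7.89 to 9.66 and 9.49. Rapgef5, an exchange factor for Rap, was at 5.72 and 5.60 and then 7.15 and 7.26, still under its 0 h arrays of 8.03 and 7.83. Gab3, an adaptor downstream of the Csf1 receptor, rose by 1.49, Fgd4, an exchange factor for Cdc42, by 1.47 and Kcnk13, a potassium channel, by 1.41. Among the largest drops at 4 h that rose again were also Rasgrp3, an exchange factor for Ras, from 7.43 and 7.35 to 8.56 and 8.52, and Ssh2 and Sgms1, with rises of 1.25 and 1.04. Sgms1 was not called without array 15, 16, 18 or 23 (adjusted p up to 0.0935), nor Ssh2 without these or either array of 1 h or 24 h (0.209). Of the 20 rises 14 were called under each of the other settings: Kcnk13, Lrrc25 and Tgfbr1 were lost with only the 4 arrays compared in the fit, and B3gnt8, Gab3 and Gnl3 with the ending of the array titles as a block. With any 1 array left out 17 were called. The exceptions were B3gnt8 (lost without array 15, 16, 18 or 23, adjusted p up to 0.113), Gab3 (15 or 23, 0.0526) and Kcnk13 (15, 18 or 23, 0.0657).

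Of 20 measured genes of cholesterol synthesis and efflux 3 rose and 1, Ch25h, fell (2.17% and 2.14% of all clusters did). Abca1, the efflux pump, read 8.19 and 7.92 at 0 h, then 6.64 and 6.75 at 4 h, then 8.30 and 8.22 at 8 h (1.57 ± 0.15, adjusted p = 0.00159 in limma), while Abcg1, the other pump, had been called higher at 4 h and held (11.35 and 11.39, then 11.33 and 11.33). Sqle and Fdps, enzymes of synthesis, rose by 0.60 and 1.33. Sqle was not called with quantile normalization applied again, under cyclic loess or with each array centred on its median. The call of Sqle was lost without any 1 of 10 arrays, those of 2 h being the exceptions, and that of Fdps without any 1 of 8, those of 1 h and 2 h being the exceptions (adjusted p up to 0.186 and 0.234).

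Of 25 genes of DNA replication 2 rose, and of 23 mitotic genes none rose and 1 fell, beside 2.17% and 2.14% of all clusters. Of the replication genes 11 had been called lower at 4 h, and of these Uhrf1, which carries DNA methylation through replication, rose from 9.07 and 9.03 to 10.09 and 9.98, and Cdc6, a loader of the replicative helicase, from 6.67 and 6.46 to 7.60 and 7.63. Mcm2 and Mcm3, subunits of that helicase, were not called and read 8.23 and 8.43, then 8.91 and 8.96, and 9.25 and 9.32, then 9.89 and 9.76. Of the mitotic genes 16 held, beside 62.5% of all clusters, among them Ccna2, Mki67, Bub1b and Kif20a, which had been called lower at 4 h. Cenpe, a kinetochore motor, was the 1 that fell, with 8.74 and 8.46 at 0 h, then 9.32 and 9.28 at 4 h, then 7.99 and 8.09 at 8 h. Cdc6 was not called without array 15, 16, 18 or 23 (adjusted p up to 0.126), Uhrf1 not with only the 4 arrays compared in the fit and Cenpe not with the title ending as a block.

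Of 13 genes of the Nrf2 and metal stress response 2 rose, 1 fell and 5 held, beside 2.17%, 2.14% and 62.5% of all clusters. Sqstm1, an autophagy receptor, rose by 0.92 and Hmox1, which degrades haem, by 0.72, both after being called lower at 4 h, and the metallothionein Mt2 fell from 10.82 and 10.63 to 9.50 and 9.52. Of 20 targets of the stress factor Atf4 none was called in limma and 11 held, near these shares of all clusters. The calls of Hmox1 and Mt2 were lost without array 15, 16, 18 or 23 (adjusted p up to 0.179 and 0.0924), and that of Sqstm1 with only the 4 arrays compared in the fit. Tlr1, a surface receptor for bacterial lipopeptide, rose by 0.86, and the adaptors Tifa and Myd88 fell by 1.06 and 0.86. Tlr1 was not called without any 1 of 8 arrays, those of 0 h and 2 h being the exceptions (up to 0.181), nor Myd88 without array 15, 18 or 23 (0.0641).

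Of 19 immediate early genes 4 fell, none rose and 11 held, and of 20 factors of mRNA decay, which set how fast short-lived messengers disappear, 2 fell, none rose and 11 held. Of all clusters 2.14% fell and 62.5% held. Zfp36, which binds AU-rich messengers and sends them to decay, counts in both lists and read 7.90 and 8.19 at 0 h, then 8.96 and 9.02 at 4 h, then 7.90 and 8.01 at 8 h. Junb and Atf3, early transcription factors, fell by 0.79 and 0.60, and Xrn1, the exonuclease that degrades decapped messengers, by 0.74. Zfp36 and Atf3 were not called without array 15, 16, 18 or 23 (adjusted p up to 0.0916 and 0.091), Junb not without array 16, 18 or 23 (0.148), and Xrn1 not without any of 8 arrays, those of 0 h and 2 h being the exceptions (0.183).

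Of 21 scavenger, phagocytic and chemoattractant receptors 1, the nucleotide receptor P2ry13, fell (9.24 and 9.15 at 4 h, then 8.17 on both arrays at 8 h) and 11 held, among them Fcgr1 at 12.25 and 12.34 and then 12.30 and 12.26. Of all clusters 2.14% fell, 2.17% rose and 62.5% held. The call of P2ry13 was lost without array 15, 16, 18 or 23 (adjusted p up to 0.0851). Of 8 NF-κB subunits and 14 genes of the respiratory chain and ribosome none was called in limma, and 6 and 13 held.

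Not every lowered gene recovered by 8 h. Of the 92 that held, 24 were still called lower than 0 h at 8 h, beside 0.62% of all clusters. Mybl1, a Myb-family factor, was at 7.25 and 7.05 at 0 h, then 5.91 and 6.09 at 4 h, then 6.01 and 6.20 at 8 h. Uck2, a kinase that salvages pyrimidines, read 9.01 and 9.04, then 7.92 and 8.05, then 7.85 and 7.86. Pbk, a kinase of dividing cells, was at 9.99 and 9.74, then 8.96 and 8.82, then 8.90 and 8.73. In all 3 the 8 h arrays stayed under both 0 h arrays. Myc, the growth factor-responsive regulator, was already at a mean of 7.52 at 2 h, and it read 8.76 and 8.95 at 4 h, then 8.74 and 8.96 at 8 h, under its 0 h levels of 9.80 and 9.87. Klf2 read 7.67 on both arrays at 4 h, then 7.76 and 7.87 at 8 h, against 8.42 and 8.69 at 0 h.

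A small number of genes that had not been called at 4 h were called at 8 h against both 4 h and 0 h. Of the 13623 clusters called in neither direction at 4 h, then 89 rose and 24 fell from 4 h to 8 h, and 7 and 5 of these were also called against 0 h at 8 h. Whatever their call at 8 h against 4 h, 37 of the 13623 were called higher at 8 h than at 0 h and 50 lower. Dio2, which activates thyroid hormone, read 7.81 and 7.69 at 0 h, then 7.90 and 8.01 at 4 h, then 9.58 and 9.57 at 8 h, and its mean at 24 h was 9.30 (8 h against 4 h 1.62 ± 0.17, adjusted p = 0.00202 in limma). Hyal1, a hyaluronidase, and Gprc5b, an orphan receptor, rose by 1.48 and 1.33, and Tmem86a, an enzyme of plasmalogen breakdown, from 8.83 and 8.93 to 10.04 and 10.18. Gpr176, Cd300e and Wdfy1 were the other 3, with rises of 1.00, 0.87 and 0.60. Slamf9 was the 1 induced gene that rose further, from 9.18 and 9.26 to 9.88 and 9.87. Neither Slamf9 nor Wdfy1 was called under cyclic loess. Wdfy1 was also not called with quantile normalization applied again or with each array centred on its median. The 5 that fell under 0 h were Stk26, Mctp1, Rhoj, Smyd3 and the metallothionein Mt2, which read 11.11 and 11.10 at 0 h, then 10.82 and 10.63 at 4 h, then 9.50 and 9.52 at 8 h. All but Dio2 and Hyal1 of these 8 risers and 5 fallers were named after their values were seen, outside the rule for named genes, except where a list holds them. Of the 13, Dio2, Hyal1, Tmem86a and Gpr176 were called with any 1 array left out; Gprc5b was lost without array 15, 16 or 23 (adjusted p 0.0801), and each of the others without array 15, 16, 18 or 23 (up to 0.246), Slamf9, Wdfy1 and Smyd3 also without arrays of other times.

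Promoter sequences were searched in the RefSeq windows from 250 bases before to 50 bases after a start, which were at hand for 11894 of the 14860 genes. The ISRE core was present for 451 genes (3.79%; 3.1% of 14927 promoters, since some genes have several). It was present for 37 of 238 genes that were induced at 4 h and fell (15.5%), for 10 of the 39 whose fall was at least 1.5 on the log2 scale (25.6%), for 17 of 103 that were induced and held (16.5%) and for 6 of 194 that were lowered and rose (3.09%). For the ISRE core both groups of induced genes were above the share of all genes. The gamma-activated site (TTCNNNGAA, the same on both strands) was present for 8.65% of all genes, 10.5% of those that fell and 7.77% of those that held, and the NF-κB site for 11.4%, 14.7% and 13.6%. Of the genes that were lowered and rose, 7.73% held the gamma-activated site and 16.5% the NF-κB site, the latter above the shares in both groups of induced genes. These genes had 1.4 promoters each, beside 1.34 in those that fell, 1.28 in those that held and 1.26 over all genes. The part of this in the shares was not tested. A match is a stretch of letters and not evidence of binding, the motifs can overlap, and no test was made of these shares.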

How the data were processed

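RNA of the 12 wells was labelled with the Affymetrix whole transcript protocol and hybridised to Mouse Exon 1.0 ST arrays. The deposited log2 values are RMA gene-level values of core probe sets that the authors made in Expression Console (background correction, quantile normalization and a summary over probes), and versions of Expression Console and RMA are not given in the sources used here. They were used as deposited, with no filter. Groups are the times in the labels.

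Transcript clusters were named with the platform annotation supplied with the data: 14996 have 1 symbol, 1019 have several and 7317 have none here. For the 135 genes that several clusters measure, the one with the highest mean was used. The 12 arrays were fitted with lmFit and eBayes of limma 3.58.1 (R 4.3.3), with the 6 times as groups (6 residual and 2.31 prior degrees of freedom), and p for 8 h minus 4 h, two-sided, was adjusted by Benjamini-Hochberg over all 23332 clusters. Spreads are standard errors from this fit. The share of a rise left at 8 h is 8 h minus 0 h over 4 h minus 0 h on the log2 scale. The fit was tested on simulated data.

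Genes named are the 20 largest called falls and rises with both 8 h arrays on 1 side of both 4 h arrays, the 10 largest rises at 4 h that held, the 10 largest drops that rose again and the 10 that held, and members of 31 gene lists (403 of 488 genes measured). Members, lists and tests were chosen with earlier results of these data known, so the lists are described and not tested. The alternatives were only the 4 arrays compared, an unadjusted p, no fold threshold and 2-fold, a trended robust prior, array weights, quantile normalization applied again, cyclic loess, median centring, the lowest 30% of clusters left out, the ending of the array titles as a block, a 2-fold band for held, and each array left out. The number of arrays limits the precision. Tables and plots were made with Python 3.11.15, pandas 2.3.3, numpy 2.4.6 and matplotlib 3.10.9.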

Additional observations from a re-analysis of the deposited data

How the results depend on the processing

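The balance of lower and higher calls moved with the setting. Clusters lower at 8 h than at 4 h (321) became 141 with only the 4 arrays compared in the fit, 492 under cyclic loess, 110 with the ending of the array titles as a block and 170 at 2-fold. Clusters higher at 8 h (326) became 60 with only the 4 arrays, 512 with array weights, 50 with the title ending as a block, 552 at an unadjusted p and 95 at 2-fold. Induced clusters that fell (297) became 108 with the title ending as a block and 150 at 2-fold. Induced clusters that held (133) became 56 and 44 under the same settings and 312 with a 2-fold band. Lowered clusters that rose (236) became 369 with array weights, 34 with the block, 385 unadjusted and 61 at 2-fold. Clusters higher at 2 h that fell (164) became 248 under cyclic loess, 70 with the block and 76 at 2-fold. Clusters lower at 2 h that rose (24) became 13 with array weights, 45 with quantile normalization applied again, 39 under cyclic loess, 42 without the lowest 30% of clusters, 4 with the block, 109 unadjusted and 8 at 2-fold. With 1 array left out these counts ran, in the same order, from 141 to 380, 58 to 479, 139 to 329, 64 to 161, 47 to 353, 86 to 202 and 6 to 171; the array left alone at its time then borrows the spread of the rest. The labels do not say what the title endings (none, _2, _2_2) mean, and why the counts moved was not tested, beyond the fewer arrays or stricter threshold that some settings have by construction. All 321 lower and 239 of the 326 higher clusters remained called under cyclic loess. Casp12, Ccl4, Il27, Irf1, Tifa and Gpr176 kept their calls without any 1 array but were not called with only the 4 arrays. Of 120 named genes with a call, 71 kept it without any 1 array. No paired analysis was possible because the labels give each array a number of its own. With 2 arrays per time, the absence of a call does not show that a gene stayed the same.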
